A study of Rattus norvegicus with 49 samples.

Results

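Homer1 was followed on each of its probe sets in the CA1 region of the rat hippocampus. A probe set was taken where the platform annotation lists Homer1 among its gene symbols. This held for 6 of the 15923 probe sets of the array, of which 5 carry Homer1 alone and 1 (1399163_a_at) carries Hax1 as well. The gene was chosen by its signals at 23 and 3 months, which were lower at 23 months on some of these probe sets, so that difference is given as a description without a test. Tests were made on the 3 middle ages, whose levels did not enter that choice, and on the spread between animals of 1 age. That spread covers the 3- and 23-month animals too, with the difference between ages removed.

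The tissue was the CA1 field of the left hippocampus of Fisher 344 rats, each with its own Affymetrix RAE 230A array. There were 9 animals at 3 months, 9 at 6 months, 9 at 9 months, 9 at 12 months and 13 at 23 months, 49 arrays in all. All had been trained in the Morris water maze and were killed 12 to 24 hours after their last session, per the series' design text, so there was no untrained group and the samples bear on the level after training. That text puts the oldest rats at 25 months once, whereas the sample labels have 23 months, and it reports 2 aged animals taken out for poor health. The labels name no genotype or drug that differed between the groups. The animals are separate, and the number of arrays limits the precision.

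Homer1 encodes a scaffold protein of the postsynaptic density of excitatory synapses. Its long forms join through a coiled coil and link group I metabotropic glutamate receptors, inositol trisphosphate receptors and Shank proteins to one another. Short forms, Homer1a and ania-3, end early through use of an alternative polyadenylation site, lack the coiled coil and compete with the long forms for the same partners. Neuronal activity induces the short forms as immediate-early transcripts, as it does Arc, a protein that acts in the removal of AMPA receptors from synapses, and Egr1, a zinc finger transcription factor. The files do not say which form a probe set reads, and no form is assigned to any of them here. Of the 5 probe sets, 1368318_at and 1368319_a_at are annotated from the same sequence record and the other 3 from a record each. Those ending in _a_at are marked by the manufacturer as matching more than 1 transcript of a gene.

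The forms share the promoter, so the 250 bases before the annotated gene start are shown as the sequence common to them. They lie at chr2:26278762-26279011 on the plus strand of GRCr8 and come from RefSeq. The RefSeq gene spans 26279012 to 26388279. Capitals mark ACGT, which is only the core of the cyclic AMP response element. That element is bound by CREB, a factor known to drive activity-induced genes.
Homer1 promoter: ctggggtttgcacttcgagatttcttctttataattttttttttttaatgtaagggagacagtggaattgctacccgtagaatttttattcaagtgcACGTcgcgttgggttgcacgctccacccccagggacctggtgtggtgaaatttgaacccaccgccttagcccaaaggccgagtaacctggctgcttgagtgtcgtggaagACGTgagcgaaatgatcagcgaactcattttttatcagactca
ACGT, which reads the same on both strands, began 153 and 43 bases before the gene start, and 27.7% of 33469 RefSeq rat promoters of the same table hold it. The longer motif TGACG, also a part of the cyclic AMP response element, was absent on either strand and is held by 18.2% of promoters. The marked stretches thus match the core alone and are not full elements. CANNTG, the general E-box, had 1 match, and 65.5% of promoters hold it. TATAAA had 1 match, on the minus strand, against a share of 12.9% of promoters. There was no match on either strand to CACGTG (5.59% of promoters), GGGGGCG (13.2%), the CArG box (1.50%) or the MEF2 site (2.96%). These are matches of letters in 1 window, and the arrays do not measure binding.

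The values are MAS5 signals, linear intensities that the authors scaled to a target of 500 on each array. A signal is proportional to brightness over a set of probes and is not comparable between probe sets, so each is set against itself across animals. Differences are on the log2 scale. Testing was limited to the 9777 probe sets with a gene symbol and a signal of 100 or more on 5 or more arrays. All 6 Homer1 probe sets passed, 4 of the 5 that carry Homer1 alone on 49 of 49 arrays and 1370997_at on 41 of 49.

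The signal of 1370454_at was lower at the later ages. It ran at 3 months between 811.1 and 1321 with a median of 1002.8, at 6 months between 626.3 and 1228.2 with a median of 831.3, and at 9 months between 593 and 767.3 with a median of 709.8. At 12 months it lay between 679.7 and 1020.7 with a median of 709.6, and at 23 months between 435.6 and 897.2 with a median of 607.4. Every 9-month array lay below the lowest 3-month array, while each other age overlapped with 3 months. The share of all probe sets that separate 9 from 3 months was not counted. The 3-month arrays also entered the choice of the gene, so this separation is a description only.

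1370997_at varied most between animals of the same age. At 3 months it lay between 103 and 432.8 with a median of 193.3, at 6 months between 72.8 and 355.2 with a median of 144.7, and at 9 months between 98.4 and 344.7 with a median of 120.2. At 12 months it ran between 95 and 268.9 with a median of 122.3, and at 23 months between 80.5 and 208.9 with a median of 112.5. Its coefficient of variation was between 29.7% and 51.9% within an age, and a few arrays stood far above the rest of theirs.

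1368318_at differed little between animals. Its medians were 1910, 1868.2, 1801, 1904.2 and 1685.1 at 3, 6, 9, 12 and 23 months, within a range over all ages of 1490 to 2324.3. The medians of 1368319_a_at at those ages were 267.4, 219.3, 232.3, 228.6 and 218.5, within a range of 138.4 to 326.3. Those of 1370656_a_at were 821.9, 726.8, 726.2, 736.9 and 685.9, within a range of 558.5 to 1132. The groups overlapped at every pair of ages for these 3 probe sets.

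In the order of mean log2 signals, no 2 neighbouring ages of any of the 5 probe sets differed by more than the larger of their SDs. 1370454_at averaged 1038 ± 175 at 3 months, 887 ± 188 at 6 months, 694.5 ± 61.0 at 9 months, 756 ± 116 at 12 months and 634 ± 144 at 23 months (SD, n = 9 at each age but the last, where n = 13). 1370997_at averaged 218 ± 99.7, 155 ± 80.4, 154 ± 79.3, 142 ± 56.3 and 121 ± 36.0 at the same ages.

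**Figure D1:**
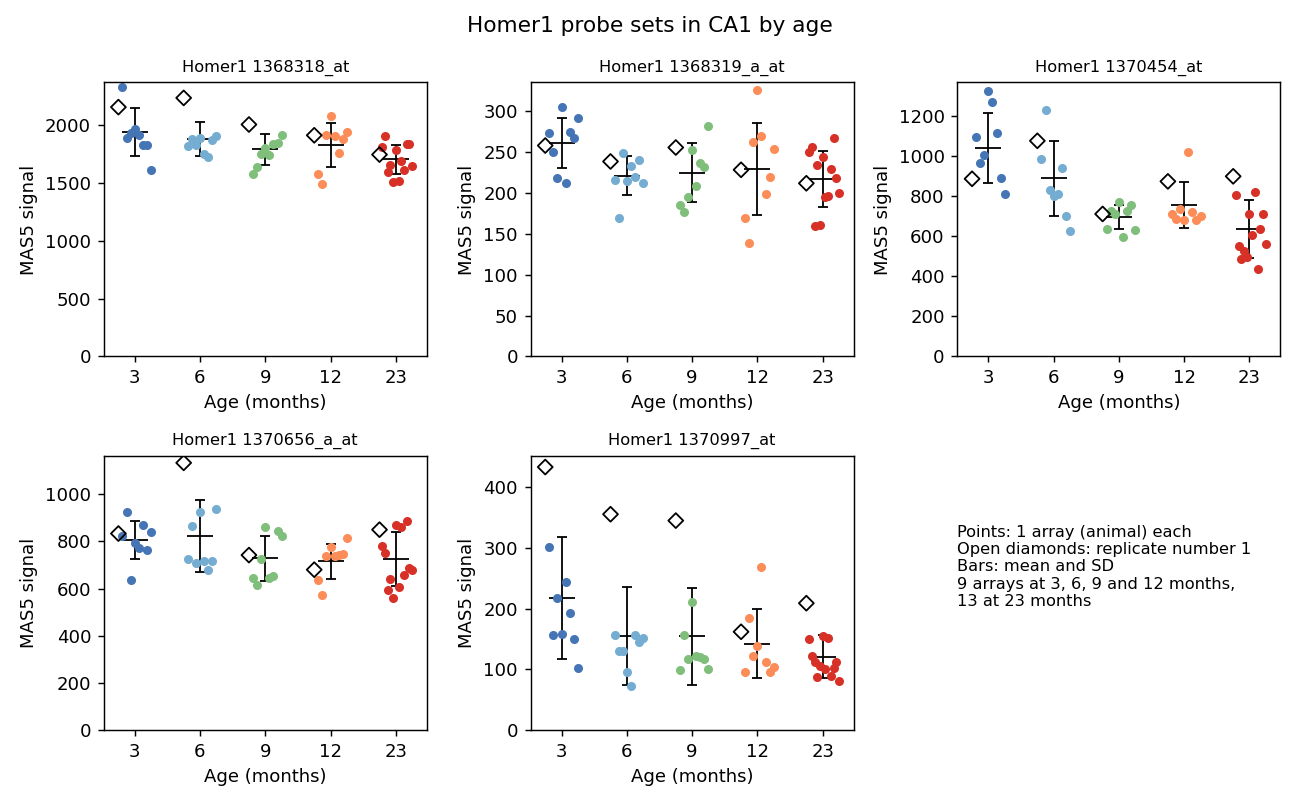
MAS5 signal (linear, no unit) of the 5 probe sets annotated to Homer1 alone against age in months; each point is 1 animal, bars are the mean and SD, and open diamonds are the animals with replicate number 1. The 23-month arrays of 1370454_at lie between 435.6 and 897.2 and its 3-month arrays between 811.1 and 1321, while 1370997_at has single high arrays at 3, 6 and 9 months, each with replicate number 1.

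The 23-month and 3-month animals, the contrast that brought the gene forward, differed by amounts that varied over the 5 probe sets. Whether the probe sets differ in this was not tested. The log2 difference of 23 minus 3 months was -0.73 ± 0.11 (SE, 13 against 9 arrays) for 1370454_at, a ratio of 0.604, and -0.78 ± 0.22 for 1370997_at, a ratio of 0.584. It was -0.28 ± 0.10 for 1368319_a_at, -0.18 ± 0.054 for 1368318_at and -0.16 ± 0.084 for 1370656_a_at, ratios of 0.826, 0.880 and 0.893. Of the 9777 probe sets 3.21% were called at 23 against 3 months by limma (adjusted p under 0.05), 2.25% higher and 0.961% lower.

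Below the lowest 3-month array lay 11 of 13 arrays of 23 months for 1370454_at, 6 for 1368319_a_at, 5 for 1370997_at, 4 for 1368318_at and 3 for 1370656_a_at. Below the 3-month mean lay 13 of 13 for 1370454_at, 1370997_at and 1368318_at. The 2 ages overlapped on each of the 5. The probe set shared with Hax1 stood apart, with a log2 difference of -0.03 ± 0.046, medians of 740.1 at 23 months and 751.8 at 3 months, and 0 of 13 arrays below the lowest 3-month array.

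Markers of other cells and of the pyramidal cells themselves were set beside this difference. The mean log2 level of 7 CA1 pyramidal markers (Wfs1, Dkk3, Pou3f1, Gpr161, Man1a1, Fibcd1 and Mpped1) was 10.72 ± 0.12 at 23 months (n = 13) and 10.86 ± 0.14 at 3 months (n = 9). The labelled region thus carried its markers on every array, Wfs1 between 4123 and 6707 and Dkk3 between 1715 and 2766. With that score as a covariate the log2 differences of 23 minus 3 months were -0.58 for 1370454_at, -0.50 for 1370997_at, -0.24 for 1368319_a_at, -0.10 for 1368318_at and -0.06 for 1370656_a_at. In tissue of many cells, fewer cells of a type and less RNA per cell cannot be told apart.

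Ttr, the gene of transthyretin and a marker of the choroid plexus, had a signal of 3908 to 16310 on 5 arrays, those of 23 months replicate 11 and of 3 months replicates 4, 6, 7 and 8. On the remaining 44 it stayed at 1123 or below. Without them the differences of 23 minus 3 months, over 12 and 5 arrays, were -0.65 for 1370454_at, -0.75 for 1370997_at, -0.37 for 1368319_a_at, -0.21 for 1368318_at and -0.22 for 1370656_a_at. The summed signal of 6 microglial markers lay between 3232 and 6652 at 23 months and between 2574 and 2927 at 3 months, with no overlap. That of the blood markers, 1 of 4 tested, reached 4388 at 23 months and 210.3 at 3 months. That of the dentate granule markers, 3 of 6 tested, ran from 552.3 to 1645.7 at 23 months and from 610.3 to 1552.7 at 3 months. The part of these cells in the difference was not tested beyond these values.

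**Figure D2:**
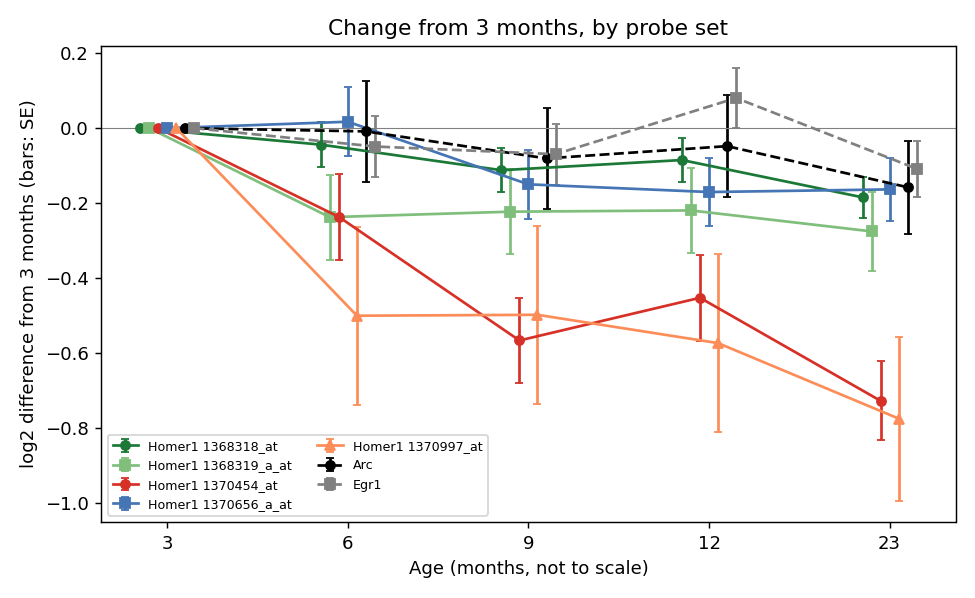
Log2 difference of each age from 3 months for the 5 Homer1 probe sets (colours), Arc (black, dashed) and Egr1 (grey, dashed), with bars for the SE; ages are evenly spaced and not to scale. At 23 months 1370997_at and 1370454_at stand at -0.78 and -0.73 and the other 5 probe sets between -0.28 and -0.11.

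Between the middle ages no Homer1 probe set passed the test. At 12 against 6 months, 1 of the 9777 probe sets was called by limma (0.0102%, a lower one that is not Homer1), and 263 had an unadjusted p under 0.05. The log2 difference of 12 minus 6 months was -0.22 ± 0.11 (SE, 9 against 9 arrays) for 1370454_at, with a 95% interval of -0.45 to 0.01, and -0.19 ± 0.092 for 1370656_a_at, with an interval of -0.37 to -0.0039 (limma, unadjusted p = 0.065 and 0.0455, adjusted p = 0.99971 for both). 8 of 9 and 9 of 9 arrays of 12 months lay below the 6-month mean of these probe sets. The 6-month mean of 1370656_a_at, 823, lay above its 6-month median of 726.8, and its 12-month median was 736.9. Such counts were not made over all probe sets. For 1370997_at the log2 difference was -0.07 ± 0.24, with an interval of -0.55 to 0.40. 1368318_at and 1368319_a_at had -0.04 ± 0.059 and 0.02 ± 0.11.

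At 9 against 6 months, 0 of the 9777 probe sets were called by limma (0%) and 220 had an unadjusted p under 0.05. 1370454_at was among those, with -0.33 ± 0.11, a 95% interval of -0.56 to -0.10 and 9 of 9 arrays of 9 months below the 6-month mean (limma, unadjusted p = 0.00576, adjusted p = 0.999664). At 12 against 9 months none was called either (0%, limma), with 388 at an unadjusted p under 0.05, and 1370454_at had 0.11 ± 0.11. The moderated F-test over 6, 9 and 12 months gave 0 calls of 9777 (0%, limma) and 288 at an unadjusted p under 0.05, 1370454_at with 0.0190 and 1370656_a_at with 0.0898 (adjusted p = 0.999853 for both).

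The log2 ratio between probe sets was compared at 12 against 6 months for the 10 pairs, with an exact permutation test over 48620 arrangements, two-sided. None passed after Benjamini-Hochberg adjustment over the 10. The smallest p was that of 1368318_at over 1370656_a_at, whose mean log2 ratio was 1.35 at 12 months and 1.21 at 6 months, a difference of 0.15 (p = 0.0323, adjusted p = 0.323).

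Within an age, the 5 probe sets fell into pairs that went together to unequal degrees. Each log2 value was taken as its deviation from the mean of its age, and Pearson's r was computed over the 49 arrays, with p from 100000 two-sided permutations of arrays within ages (smallest possible 1e-05) and adjustment over the 10 pairs. 7 of 10 pairs passed. 1368318_at and 1368319_a_at, the pair annotated from the same record, had r = 0.62 (Spearman's rho 0.62, permutation p = 2e-05, adjusted 0.0001). 1368318_at with 1370656_a_at had 0.60 (rho 0.62, permutation p = 1e-05, adjusted 0.0001), and 1368319_a_at with 1370656_a_at had 0.51 (rho 0.45, permutation p = 0.00018, adjusted 0.0006).

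1370997_at went with another pair of probe sets. Its r was 0.50 with 1368318_at (rho 0.41, permutation p = 0.0006, adjusted 0.00138) and 0.47 with 1370454_at (rho 0.50, permutation p = 0.00069, adjusted 0.00138), against 0.07 with 1368319_a_at (rho 0.08, adjusted permutation p = 0.655) and 0.27 with 1370656_a_at (rho 0.15, adjusted permutation p = 0.0895). 1370454_at with 1370656_a_at (0.35, rho 0.32) and with 1368318_at (0.31, rho 0.31) passed at an adjusted permutation p of 0.043 each. The first call depended on each of 15 arrays and the second on each of 17, with adjusted p of up to 0.0848 and 0.0908 once such an array was dropped. Its r with 1368319_a_at was 0.08 (rho 0.09).

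The single ages did not all show these relations. That of 1368318_at with 1368319_a_at was -0.12, 0.10, 0.88, 0.97 and 0.78 at 3, 6, 9, 12 and 23 months, near 0 at the earliest 2 ages. That of 1370454_at with 1370997_at was 0.18, 0.34, 0.43, 0.75 and 0.81, positive at each of the 5 ages. Whether r differs between ages was not tested. Without the 2 arrays farthest from the median of the first probe set, r was 0.57 for 1368318_at with 1368319_a_at, 0.58 for 1368318_at with 1370997_at and 0.46 for 1370454_at with 1370997_at. The last of these did not pass with the replicate number as a block (0.29, adjusted permutation p = 0.0701).

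**Figure D3:**
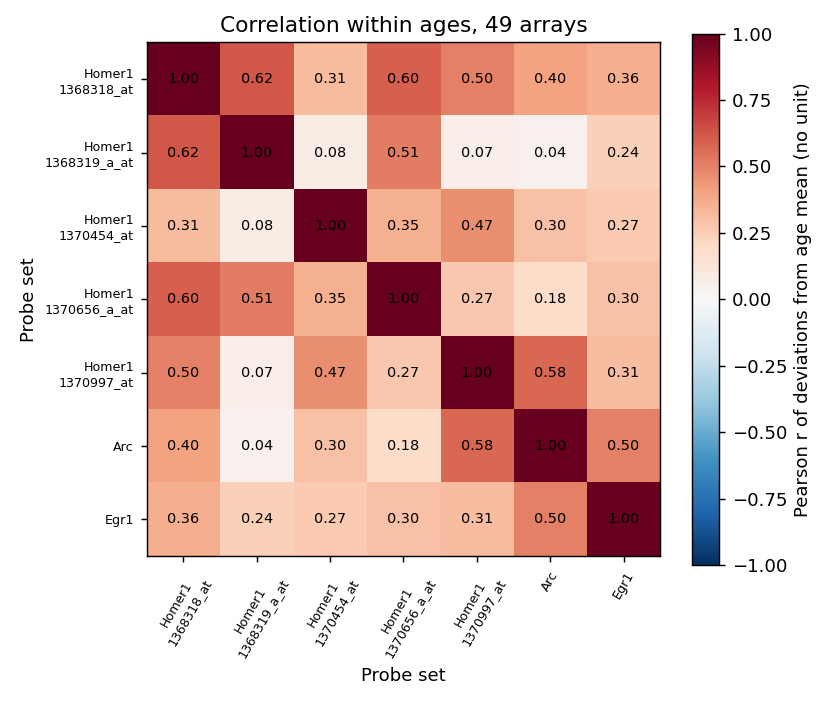
Pearson's r (colour, no unit) of log2 deviations from the age mean over 49 arrays, for every pair of the 5 Homer1 probe sets, Arc and Egr1. The largest value is 0.62, of 1368318_at with 1368319_a_at, and 1370997_at has the highest r with Arc, 0.58.

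Arc and Egr1 served as a guide to activity-induced RNA. Each has 1 probe set here. Arc had medians of 718.5, 828.3, 766.3, 727.2 and 706 at 3, 6, 9, 12 and 23 months, and Egr1 of 2498.2, 2301.9, 2395.3, 2589.3 and 2308.7. Neither passed at 23 against 3 months, where the log2 difference was -0.16 ± 0.12 for Arc and -0.11 ± 0.075 for Egr1 (SE, 13 against 9 arrays, limma, adjusted p = 0.611 and 0.543). The 95% intervals, -0.41 to 0.09 and -0.26 to 0.04, hold both 0 and differences of the size of 1368319_a_at for Arc. 12 of 13 arrays of 23 months lay below the 3-month mean of each, and the 2 ages overlapped for both. The 3-month mean of Arc, 819, includes 1 array at 1596.3 and lay above the 3-month median of 718.5. Such counts were not made over all probe sets. At 12 against 6 months Arc and Egr1 had -0.04 ± 0.14 and 0.13 ± 0.081 (limma, adjusted p = 0.99971).

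**Figure D4:**
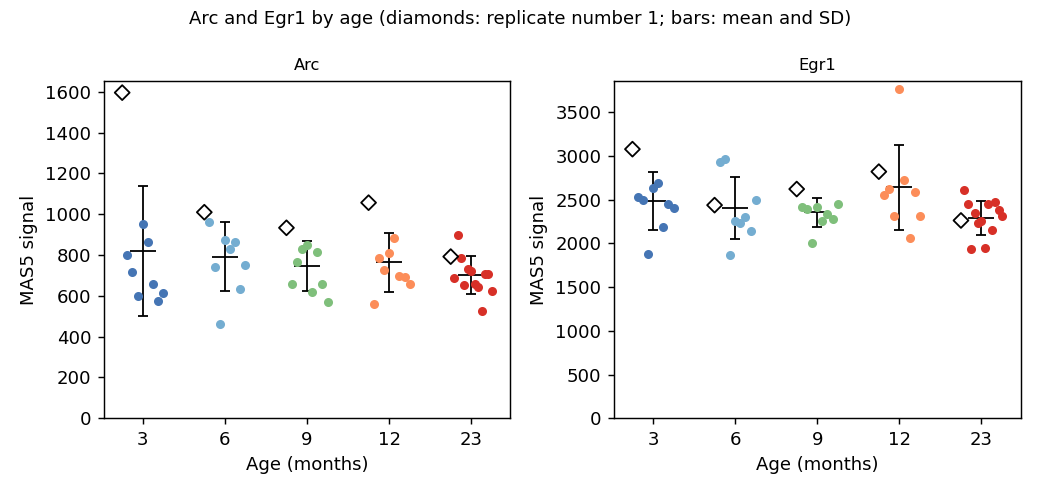
MAS5 signal (linear, no unit) of Arc and Egr1 against age in months; points are animals, bars the mean and SD, and open diamonds the animals with replicate number 1. Arc reaches 1596 on 1 array of 3 months and does not exceed 951.4 on the others of that age, and Egr1 reaches 3763 on 1 array of 12 months.

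Of the Homer1 probe sets, 1370997_at followed Arc most closely from animal to animal. Its r within ages was 0.58 (Spearman's rho 0.57, permutation p = 0.00014, adjusted over 10 pairs 0.0014). It was 0.72, 0.27, 0.75, 0.74 and 0.48 at 3, 6, 9, 12 and 23 months, positive at each, and 0.55 without the 2 arrays farthest from the median of Arc. Leaving out each array in turn gave 0.50 to 0.62, and the replicate number as a block gave 0.29, which did not pass (adjusted permutation p = 0.180). 1368318_at had 0.40 (rho 0.37, permutation p = 0.00931, adjusted 0.0465), a call lost on dropping any single one of 28 arrays (adjusted permutation p of up to 0.0863). 1370454_at had 0.30 (rho 0.38, permutation p = 0.0420, adjusted 0.0718), and 0.44 (adjusted permutation p = 0.0112) without 3 months replicate 1, the array of highest Arc. 1370656_a_at and 1368319_a_at had 0.18 and 0.04 (rho 0.13 and 0.09, adjusted permutation p = 0.237 and 0.752).

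With Egr1 no Homer1 probe set passed. The r was 0.36 for 1368318_at (rho 0.46), 0.31 for 1370997_at (rho 0.38) and 0.30 for 1370656_a_at (rho 0.34), each at an adjusted permutation p of 0.0718, 0.27 for 1370454_at (rho 0.30, adjusted 0.105) and 0.24 for 1368319_a_at (rho 0.22, adjusted permutation p = 0.182). With the replicate number as a block 2 of these 5 passed, 1368318_at (0.43) and 1368319_a_at (0.47), each at an adjusted permutation p of 0.0152. By rank correlation 3 of these 5 passed, 1368318_at, 1370656_a_at and 1370997_at, with adjusted permutation p of 0.0074, 0.0389 and 0.0219. Arc and Egr1 themselves had an r of 0.50 (rho 0.46, permutation p = 0.0014, adjusted over 6 pairs 0.0084).

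The ratio of each probe set to 1368318_at, the one of highest mean log2 signal, was set against the mean of Arc and Egr1 in the same way. That of 1370997_at had r = 0.49 (rho 0.49, permutation p = 0.00116, adjusted over 4 pairs 0.00464), positive at each of the 5 ages (0.64, 0.26, 0.88, 0.49 and 0.34). It was 0.44 without the 2 arrays farthest from the median of the guide genes. The call ended with the CA1 score removed (0.37, adjusted permutation p = 0.0605), without the 5 arrays numbered 1 (0.29, adjusted 0.210) and with the replicate number as a block (0.19, adjusted 0.717). The ratios of 1370454_at, 1370656_a_at and 1368319_a_at had 0.11, -0.03 and -0.12 (rho 0.26, -0.06 and -0.07, adjusted permutation p = 0.647, 0.873 and 0.647). Whether the r of 1370997_at differs from those of the other probe sets was not tested.

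**Figure D5:**
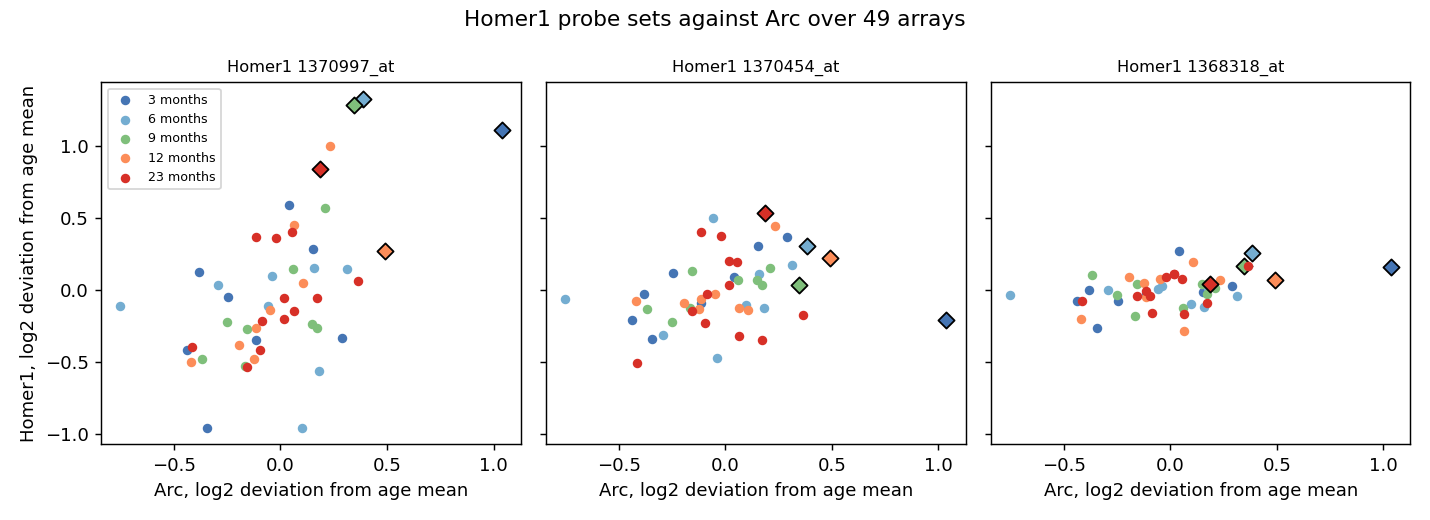
Log2 deviation from the age mean of 3 Homer1 probe sets against that of Arc, 1 point per animal, coloured by age; outlined diamonds are the animals with replicate number 1. The spread of 1370997_at with Arc has r = 0.58, against 0.30 for 1370454_at and 0.40 for 1368318_at. For 1370997_at the diamonds of 3, 6 and 9 months are each the highest of their age on both axes.

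The arrays numbered 1 stood out in this relation. The labels do not say what a replicate number stands for, and the number 1 was singled out after the data were seen. At 3, 6, 9 and 12 months the animal numbered 1 had the highest Arc signal of its age, 1596, 1010, 933.6 and 1057, against at most 951.4, 961.3, 851 and 885 on the others. At 3, 6, 9 and 23 months it had the highest 1370997_at signal, 432.8, 355.2, 344.7 and 208.9, against at most 301.5, 156.9, 210.6 and 154.6 on the others. Over the 5 arrays numbered 1, the mean deviation from the age mean was 0.97 on the log2 scale for 1370997_at, the second highest of the 9777 probe sets, and 0.49 for Arc.

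The other Homer1 probe sets did not share this rank. Their mean deviations on those arrays were 0.18 for 1370454_at, 0.15 for 1370656_a_at, 0.14 for 1368318_at and 0.06 for 1368319_a_at. Of all 9777 probe sets, 0.920% were highest on the array numbered 1 in 4 or more ages, against 0.041% to 0.338% for the numbers 2 to 9. The number 2 has only 4 arrays, so a probe set had to be highest on each of them to count. Without the 5 arrays, the r with Arc was 0.38 for 1370997_at and for 1370454_at (adjusted permutation p = 0.0874 for both). Without them the r of 1370454_at with 1370997_at was 0.51 (adjusted permutation p = 0.00118), and that of 1368318_at with 1370997_at was 0.32 (adjusted permutation p = 0.103). What these arrays share was not tested.

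The CA1 pyramidal markers also moved with Homer1 within ages. Their score had r = 0.64 with 1368318_at (adjusted permutation p = 0.00042), 0.54 with 1370454_at (0.00353), 0.48 with 1370997_at (0.0114), 0.46 with 1370656_a_at (0.0147) and 0.57 with Arc (0.00168), against 0.15 with 1368319_a_at (0.519) and 0.29 with Egr1 (0.190), adjusted over 84 pairs. The score of Prox1, Dsp and Calb2, markers of the neighbouring dentate gyrus, had -0.67 with 1368318_at (0.00042) and -0.41 with 1370997_at (0.0371). Tdo2, another dentate marker, did not exceed 35.5 on any array. Of 4 CA3 pyramidal markers 1, Bok, was tested, and it had 0.57 with 1370454_at (adjusted permutation p = 0.0014). The score of 7 markers of all neurons had 0.42 with 1370656_a_at (0.0360) and 0.46 with Egr1 (0.0063). The log2 ratio of 3′ to 5′ actin signal, a sign of RNA quality, had 0.45 with 1368318_at (adjusted permutation p = 0.0244) and did not pass with any other Homer1 probe set.

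With the CA1 score removed from both sides, 1370997_at and Arc had r = 0.42 (adjusted permutation p = 0.0611), and 1370454_at and Arc had -0.02. Of the 7 pairs of Homer1 probe sets, 3 passed on those values. 1368318_at with 1368319_a_at had 0.69 and 1368318_at with 1370656_a_at had 0.44. 1370454_at with 1370997_at had 0.28 (adjusted permutation p = 0.127). With the dentate score removed the r of 1370997_at with Arc was 0.51 (adjusted permutation p = 0.004). With both scores removed that r was 0.44 (adjusted permutation p = 0.031).

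The 5 genes of highest r with each probe set were listed over the 49 arrays, as a description across probe sets of the same arrays. A gene with several tested probe sets entered with the one of highest r, which favours such genes over Arc and Egr1 in the ranks. For 1370997_at they were Dusp6 (0.69), a phosphatase of ERK kinases, Nr4a1 (0.64) and Junb (0.61), both transcription factors of the immediate-early kind, Zfp207 (0.60) and Hsp90ab1 (0.60), a chaperone. Arc ranked 8 of 8093 genes for this probe set, and Egr1 568. 1368318_at also had Dusp6 first (0.69), before Mpped1 (0.67), itself one of the CA1 markers, Cadps2 (0.66), Lpar1 (0.61), a receptor for lysophosphatidic acid, and Mrfap1 (0.60). Arc ranked 219 and Egr1 339 for it.

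The other 3 probe sets had other genes beside them. For 1370454_at these were Hspa5 (0.61), a chaperone of the endoplasmic reticulum, Tmem44 (0.60), Bok (0.57), the CA3 marker given above and a member of the Bcl-2 family, St3gal2 (0.57), a sialyltransferase, and Ccnd1 (0.56), cyclin D1. For 1370656_a_at they were Dyrk2 (0.69), a kinase, Cdh11 (0.68), a cadherin, Gria3 (0.64) and Gria2 (0.62), AMPA receptor subunits, and Ppm1b (0.63), a phosphatase. For 1368319_a_at they were Ghitm (0.71), Gnb1 (0.67), a G protein beta subunit, Scarb2 (0.66), a lysosomal membrane protein, Tmco1 (0.64) and Cdh11 (0.63). Arc ranked 477 for 1370454_at, 1570 for 1370656_a_at and 3181 for 1368319_a_at.

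Activity-induced genes as a group gave a base for these values. Of 44 such genes listed, Arc and Egr1 among them and Homer1 not, 36 were tested on 48 probe sets. With 1370997_at, 13 of the 48 had an r above 0.33, the value that 5% of all probe sets exceed. For 1368318_at 15 of the 48 lay above the corresponding value, for 1370454_at 7, for 1368319_a_at 6 and for 1370656_a_at 4. Dusp6 had the highest r of the list for 4 of the 5 probe sets, and Fos (0.49) for 1368319_a_at. Other members went the opposite way. The lowest r was -0.53 with 1368318_at, for a probe set of Jun, and -0.42 with 1370997_at, for Nrn1. Between 31 and 34 of the 48 had a positive r with each Homer1 probe set, against 45.5% to 53.0% of all probe sets. How many lay among the lowest 5% was not counted. The median r over the list ran from 0.07 for 1370454_at to 0.17 for 1368318_at, against medians of -0.03 to 0.01 over all probe sets.

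With age, 2 of the 48 activity probe sets fell and none rose at 23 against 3 months, against 0.961% and 2.25% of all tested probe sets. A probe set of Nr4a2, an orphan nuclear receptor, averaged 512 ± 85.1 at 23 months and 679 ± 118 at 3 months (SD, n = 13 and 9). Its log2 difference was -0.41 ± 0.093 (limma, adjusted p = 0.00407), and 12 of 13 arrays lay below the 3-month mean. Another tested probe set of Nr4a2 was not called. Ier5 averaged 809 ± 143 at 23 months and 989 ± 163 at 3 months, a difference of -0.29 ± 0.083 (limma, adjusted p = 0.0347). Egr2, a relative of Egr1, had -0.49 ± 0.15 and did not pass (limma, adjusted p = 0.0655). The median log2 difference of the list was -0.11, against -0.00099 over all 9777. At 12 against 6 months none of the 48 was called (0.0102% of all), with a median of -0.03.

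Homer2 and Homer3, the other Homer scaffold genes, were dim. Homer2 reached a signal of 100 on 8 of 49 arrays, and its medians lay between 80.7 and 87.4. Homer3 did so on 26, with medians between 98.1 and 109.5. Their log2 differences of 23 minus 3 months were 0.06 ± 0.12 and -0.02 ± 0.15 (SE, 13 against 9 arrays, limma, adjusted p = 0.874 and 0.979). The 95% intervals, -0.17 to 0.29 and -0.32 to 0.29, do not reach the differences of 1370454_at and 1370997_at.

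The Homer family and its binding partners formed a list of 29 genes, 25 of them tested on 37 probe sets. None of the 37 was called at 23 against 3 months or at 12 against 6 months, and the median log2 differences were 0.00014 and 0.0012, against -0.00099 and -0.0015 over all probe sets. The list leaves out the Homer1 probe sets themselves. The smallest p at 23 against 3 months belonged to Cdc42, a small GTPase, with 3427 ± 244 at 23 months and 3774 ± 255 at 3 months (-0.14 ± 0.044, limma, adjusted p = 0.0687). Trpc4, a cation channel, had 285 ± 42.6 at 23 months and 339 ± 25.9 at 3 months (-0.26 ± 0.083, limma, adjusted p = 0.0719), and Ryr2, a ryanodine receptor, had 152 ± 43.5 at 23 months and 113 ± 29.4 at 3 months (0.43 ± 0.17, limma, adjusted p = 0.191).

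The probe set that carries both Hax1 and Homer1 behaved unlike the other 5. Its signal lay between 652.5 and 900 over all arrays, with medians of 751.8, 768.5, 793.6, 778.1 and 740.1 at 3, 6, 9, 12 and 23 months. Its r within ages was -0.38 with 1370997_at (rho -0.26, permutation p = 0.0131, adjusted over 6 pairs 0.0393), -0.29 with 1368318_at and -0.27 with 1370454_at (adjusted permutation p = 0.101 for both). None of its 5 correlations with the Homer1 probe sets passed in the positive direction. Which of the 2 genes it reads cannot be told apart here.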

How the data were processed

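Per the series' design text and the submitters' processing notes, the authors computed the deposited intensities, which are linear, with MAS5 and brought every array to a target of 500. The version is not given in the sources used here. Trimmed array means lay between 498.0 and 498.6 and medians between 208 and 224.9.

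A floor of 16 was set on the deposited intensities before log2 was taken, and nothing was rescaled. The platform annotation gave 1 symbol to 12789 of 15923 probe sets, several to 312 and none to 2822 (57 probe sets are controls). RefSeq (GRCr8) supplied current symbols for 12754 of the 12789 through their Entrez IDs. limma 3.58.1 (R 4.3.3) was fitted to all 49 arrays with 1 mean per age, moderated by eBayes with a variance trend, and adjusted by Benjamini-Hochberg over 9777 probe sets. Within-age correlations were computed in Python 3.11.15 with 100000 permutations. A cell type score is the mean log2 level of its markers.

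In a simulation of the 12 against 6 month comparison over 9777 probe sets, limma found 18 of 50 probe sets shifted by 0.25, 45 of 50 shifted by 0.5, 49 of 50 shifted by 1 and 50 of 50 shifted by 2 (log2). Of its 169 calls 7 were false. The noise was drawn independently for each probe set, and the many planted shifts made the adjustment milder than in the real comparison. The counts run over probe sets of every spread. They do not give the chance of finding a shift in a Homer1 probe set.

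The probe sets, gene lists and markers were chosen with earlier results of these data known. Genes named are every probe set of Homer1, Arc, Egr1, Homer2 and Homer3, the 5 genes of highest r with each Homer1 probe set, list members called or among the 3 of smallest p, and markers of CA1, dentate and CA3 cells whose level moved with Homer1 (of all neurons only the score is given). The table had 0 unused sample columns. The closest 2 arrays still differed, with an SD of 0.251 between their log2 values. Batches could not be looked at, since dates of scanning are not used here. Alternatives covered the floor, the filter, normalization, rank correlation, marker scores, the replicate number as a block and each array left out.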

Additional observations from a re-analysis of the deposited data

Results flagged for a closer look

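In 7 of 40 groups looked at (10 probe sets at each of the 4 ages with 9 animals), 1 array lay far from the rest by Dixon's test at the 95% level. Chance alone gives this in about 1 of 20 groups where values are normally distributed. The test was run on linear signals and not on log2 values, so the count cannot be set against that share. At 6 months the array numbered 1 had 2231.6 for 1368318_at, with the others between 1725 and 1903, and 355.2 for 1370997_at, with the others between 72.8 and 156.9. At 9 months the array numbered 1 had 344.7 for 1370997_at, with the others between 98.4 and 210.6. At 3 months it had 1596.3 for Arc, with the others between 574.3 and 951.4.

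The other 3 lay on other arrays. At 6 months replicate 3 had 169.7 for 1368319_a_at, with the others between 213 and 248.6. At 12 months replicate 5 had 3763.1 for Egr1, with the others between 2064 and 2821. At 9 months replicate 7 had 181.2 for Homer3, with the others between 80.8 and 124.3.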

How the results depend on the processing

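No Homer1 probe set passed at 12 against 6 months under any limma alternative run, among them another floor, filter, scaling and variance model and the replicate block. The 12 against 6 month difference of 1368319_a_at ran from -0.050 to 0.10 and that of 1370997_at from -0.20 to 0.093 when single arrays were left out. The relation of 1370997_at with Arc (0.58) passed with each array left out. It was 0.29 with the replicate number as a block (adjusted permutation p = 0.180), 0.42 with the CA1 score removed and 0.38 without the 5 arrays numbered 1, none of which passed. With both the CA1 and dentate scores removed it was 0.44 and passed (adjusted permutation p = 0.031). The block also took the ratio of 1370997_at to 0.19, the CA1 score to 0.37 and the arrays numbered 1 to 0.29. With both scores removed that ratio had 0.38 (adjusted permutation p = 0.0498). Removal of marker scores and of the arrays numbered 1 was chosen after seeing the data.

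Numbers pair no animals by the labels. Over 86 pairs of arrays with the same number at different ages the median r of deviations was 0.05, from -0.13 to 0.36, against -0.01 over 868 other pairs, and 38.4% of them exceeded 0.1, against 13.7% of the other pairs. Arrays of the same number were thus somewhat more alike. The main tests took the animals as separate, and their permutations within ages take no account of this likeness. The block changed no call at 12 against 6 months. Among the correlations it left 2 calls with Arc and Egr1, but other ones: both with Arc were lost, and 1368318_at (0.43) and 1368319_a_at (0.47) passed with Egr1.

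The count of 2 relations with Arc and Egr1 was 3 with quantile normalization, 1 with median centring, without arrays of high Ttr, with the dentate score removed or with both scores removed, 0 with the CA1 score removed or without the 5 arrays numbered 1, 6 by Spearman's rho, 5 without the 2 farthest arrays, and 1 to 4 with single arrays left out. The count of 7 pairs of probe sets was 3 with the CA1 score removed, 4 with both scores removed, 4 without the arrays numbered 1, 6 with median centring, and 5 with the block, by Spearman's rho, without arrays of high Ttr, without the 2 farthest arrays or with the dentate score removed. The count of 1 ratio was 0 with the block, with the CA1 score removed or without the arrays numbered 1. The causes were not tested.

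Some signs turned, among them those of 1368318_at with 1370454_at (0.31, a pair that passed) and of 1370454_at with Arc (0.30). With Arc, 1368319_a_at had -0.068 (dentate score removed), -0.052 (CA1) and -0.018 (both), and -0.013 to 0.096 with single arrays left out, 1370454_at -0.015 (CA1) and -0.0505 (both), and 1370656_a_at -0.11 (CA1) and -0.11 (both). 1368319_a_at with 1370997_at had -0.081 (dentate), -0.0089 (CA1), -0.052 (both) and -0.015 (without arrays numbered 1), and with 1370454_at -0.0069 (CA1). 1368318_at with 1370454_at had -0.057 (CA1). The ratio of 1368319_a_at had 0.058 (block), 0.031 (2 farthest arrays left out) and 0.014 (both), that of 1370454_at -0.12 (block), -0.017 (CA1) and -0.057 (both), and that of 1370656_a_at 0.044 without the arrays numbered 1 and -0.14 to 0.029 with single arrays left out. Arc and Egr1 have 1 probe set each, so other probe sets of them were not run. Low signal limits Homer2 and Homer3, which stood near 100, and 1370997_at on the 8 arrays where it was under 100.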
